A study of Arabidopsis thaliana with 9 samples.

Results

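The genes described here were 10 of the 32833 genes in the deposited count table. They are MYB34 (AT5G60890), MYB51 (AT1G18570), CYP79B2 (AT4G39950), CYP79B3 (AT2G22330), CYP83B1 (AT4G31500), SUR1 (AT2G20610), UGT74B1 (AT1G24100), CYP81F2 (AT5G57220), CYP71A13 (AT2G30770) and PAD3 (AT3G26830). These genes make and control indole glucosinolates and camalexin. They were chosen by gene identifier, from what each gene is known to do, but with earlier results of these data known. All 10 passed the filter on low counts, and the lowest count of any of them in a library was 116, for CYP81F2. The tissue was callus of Arabidopsis thaliana, the unorganised growth that cut plant parts make when given hormones. Hypocotyl pieces of etiolated seedlings were kept on callus induction medium (4 days) and next on shoot induction medium (10 days), and mRNA was sequenced from total RNA with strand-specific libraries. The genotypes, with 3 libraries each, were wild type (Col-0), a pnet1 knockout, called the mutant from here on, and a PNET1 overexpression line, all given the same media and times. PNET1 is a protein of the plant nuclear envelope, and the design asks what its loss and its excess do to the transcripts of callus. The sample labels name neither the allele of the mutant nor the promoter that drives the extra PNET1, only 1 overexpression line was sequenced, and its background was not stated. The mutant column names carry an extra number before the replicate number, which may stand for an allele but is not explained. Separate cultures are not stated for the replicates either, so the p-values measure the spread between these libraries, which may be technical.

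Indole glucosinolates are sulfur-rich defence compounds of the cabbage order, and camalexin is the main phytoalexin of Arabidopsis. Both start from tryptophan. CYP79B2 and CYP79B3 turn tryptophan into indole-3-acetaldoxime, a branch point from which CYP83B1 leads into indole glucosinolates and CYP71A13 leads into camalexin, and which is also linked to the growth hormone auxin. The MYB factors MYB34 and MYB51 switch on the glucosinolate branch, and damage or infection is known to raise the camalexin branch.

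The bases just before the gene start are shown for 4 of the genes, because the CYP79B pair serves the same step and shares a run of bases there, and because CYP81F2 and SUR1 are the only ones of the 10 with a searched motif in that window. Each sequence is the 250 bases before the annotated start, 5′ to 3′ on the strand of the gene, read from the RefSeq TAIR10.1 genome. In the CYP79B2 and CYP79B3 lines the capitals mark the longest run of bases that the pair shares. In the CYP81F2 and SUR1 lines they mark a W-box, the letters TTGACC or TTGACT on either strand, which WRKY factors are known to bind, or a G-box, CACGTG, which MYC-type factors are known to bind. No match overlapped another.
CYP79B2, chr4:18524792-18525041, plus strand: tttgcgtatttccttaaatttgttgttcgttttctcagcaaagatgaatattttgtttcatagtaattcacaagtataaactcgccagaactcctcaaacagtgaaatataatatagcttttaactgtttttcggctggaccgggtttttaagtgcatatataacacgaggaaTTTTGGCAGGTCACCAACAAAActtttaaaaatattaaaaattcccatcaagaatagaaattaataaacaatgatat
CYP79B3, chr2:9488163-9488412, plus strand: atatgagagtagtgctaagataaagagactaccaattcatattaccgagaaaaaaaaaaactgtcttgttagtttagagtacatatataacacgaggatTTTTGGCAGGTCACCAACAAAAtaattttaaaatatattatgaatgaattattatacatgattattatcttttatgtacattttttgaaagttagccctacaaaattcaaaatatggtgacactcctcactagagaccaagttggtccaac
CYP81F2, chr5:23187590-23187839, plus strand: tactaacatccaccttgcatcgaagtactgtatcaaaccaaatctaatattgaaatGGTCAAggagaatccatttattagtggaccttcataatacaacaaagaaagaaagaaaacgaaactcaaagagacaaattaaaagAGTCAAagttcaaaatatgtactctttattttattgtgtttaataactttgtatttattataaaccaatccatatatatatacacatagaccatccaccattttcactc
SUR1, chr2:8880441-8880690, minus strand: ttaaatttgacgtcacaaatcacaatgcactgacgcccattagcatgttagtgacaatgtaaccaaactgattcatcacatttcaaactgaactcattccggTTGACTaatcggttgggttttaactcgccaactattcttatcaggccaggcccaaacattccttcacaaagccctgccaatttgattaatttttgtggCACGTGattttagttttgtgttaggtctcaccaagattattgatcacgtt
The shared run of CYP79B2 and CYP79B3 is 22 bases long and occurs, on either strand, before 2 of 27443 protein-coding genes, which are this pair. Among the other pairs of the 45 that the 10 genes form, the longest shared run was between 7 and 13 bases, with a median of 9. It begins 77 bases before the start of CYP79B2 and 151 bases before that of CYP79B3. CYP81F2 has 2 W-boxes, which begin 194 and 109 bases before its start, and SUR1 has 1 W-box 148 bases before and 1 G-box 50 bases before. Of all 27443 windows, 28.4% hold at least 1 W-box, 6.18% hold 2 or more and 6.49% hold a G-box. A match is a run of letters and not a shown binding site, and the 8 genes without a match lack only these letters in this window.

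The genes lie on all 5 chromosomes, and no pair of the 10 are neighbours. CYP79B2 (chr4:18525042-18527602) and CYP79B3 (chr2:9488413-9491404) are identical in 78.1% of the columns of their coding alignment, gap columns included. Their longest shared coding run is 32 bases. CYP71A13 (chr2:13109909-13111988) lies 8537 bases from its close relative CYP71A12, and by the same measure the pair is 90.4% identical. Their longest shared run, shown here because it sets how well reads can tell them apart, spans coding bases 592 to 650 of CYP71A13.
CYP71A13 and CYP71A12, chromosome 2: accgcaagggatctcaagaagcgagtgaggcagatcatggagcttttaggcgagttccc
That run is 59 bases long, shorter than a 150-base read, and no stretch of 150 coding bases was identical in the compared relatives of the 10 genes. CYP71A13 also overlaps a gene on the opposite strand by 572 bases. That gene had 18 counts in all 9 libraries, and the sources used here do not tell how reads in the overlap were counted.

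Each library held between 16890848 and 19493969 counts. PNET1 itself, taken as locus AT1G07970, was at 32.7, 31.4 and 28.9 CPM (counts scaled to a common library size) in wild type, at 1.54, 1.12 and 1.37 CPM in the mutant and at 4590.5, 4912 and 5215 CPM in the overexpression line, which is the order the labels give. Of the callus markers, WIND1 averaged 400.4 CPM in wild type, LBD16 0.922 CPM, and LBD29 was at 0 in all wild-type and overexpression libraries. The 5 callus markers summed to between 473 and 506 CPM in wild type, 554 and 602 CPM for the mutant, and 467 and 505 CPM for the overexpression line. Of these, WOX11 averaged 85.4 CPM in wild type, 145 CPM in mutant callus and 67.2 CPM in overexpression callus, and WOX5 averaged 2.88, 1.54 and 4.58 CPM in that order, both called in both comparisons with wild type. Summed levels of marker lists of 3 genes each moved with the mutant. Green leaf markers summed to between 1489 and 1968 CPM in wild type and between 653 and 758 CPM in the mutant, and epidermis markers to between 372 and 481 CPM and between 165 and 209 CPM, with all 3 genes of each list lower in the mutant. Phloem markers summed to between 173 and 209 CPM in wild type and between 285 and 318 CPM in the mutant, with all 3 genes higher. In the overexpression line none of these 9 genes was called, and the sums were 1989 to 2839 CPM for green leaf, 529.9 to 692 CPM for epidermis and 175 to 216 CPM for phloem. The green leaf and epidermis sums there were above every wild-type library, while the phloem sums overlapped wild type. Endodermis markers summed to 14.6 to 17.9 CPM in wild type, 7.30 to 9.39 CPM in the mutant (1 gene lower) and 20.6 to 25.4 CPM in the overexpression line (1 gene higher). Shoot meristem markers summed to 18.3 to 21.0, 22.3 to 29.2 and 22.0 to 24.5 CPM in that order, with 1 gene higher in each altered genotype. The part of these cell types in the results that follow was not tested. In whole tissue, fewer cells of a type and less RNA per cell cannot be told apart.

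The wild-type library of replicate 2 was the lowest of the 3 wild-type libraries for 9 of the 10 genes. Over all 19698 tested genes it was the lowest for 32.9%. Relative to the mean of the other wild-type libraries it stood at -40.1% for CYP71A13, -29.6% for MYB34, -25.8% for CYP79B2 and -9.84% for UGT74B1, while the median over all tested genes was 0.0302%. CYP81F2 was the exception, lowest in replicate 1. The spread of the 10 genes was also wider in wild type than in the other genotypes: their median coefficient of variation was 14.4%, against 3.12% for the mutant and 6.33% for the overexpression line. The medians over tested genes with a mean of at least 5 CPM were 5.44%, 4.85% and 5.93% in the same order.

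**Figure D1:**
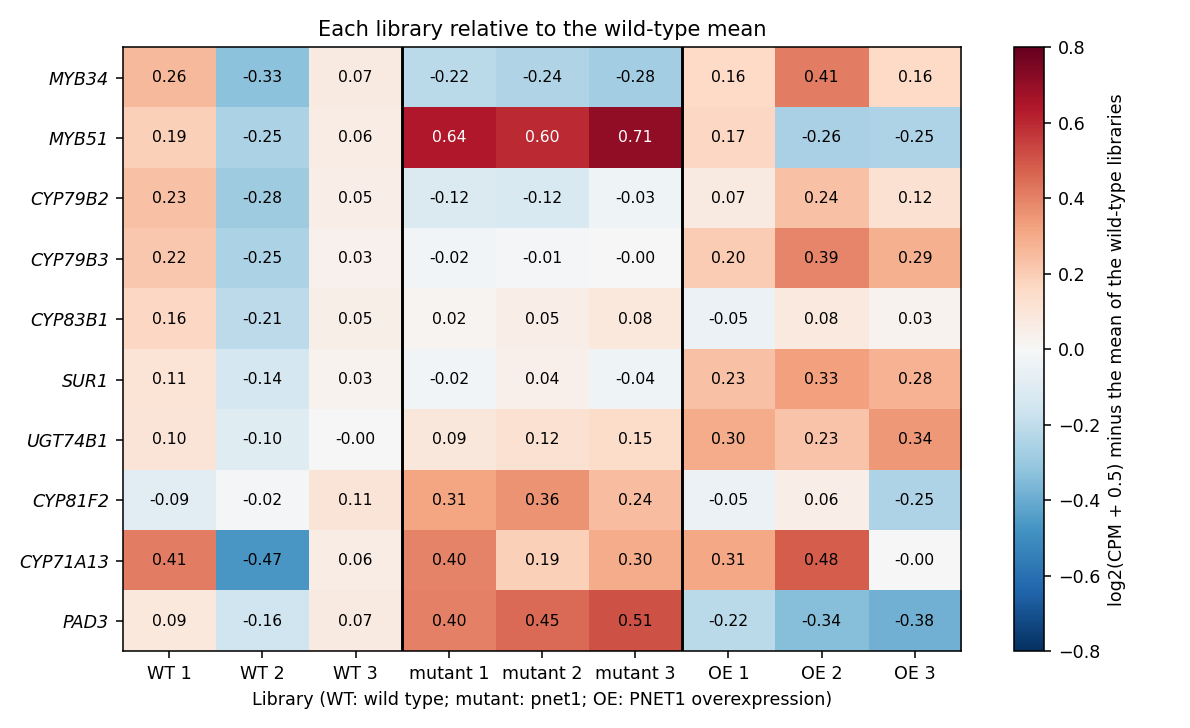
Level of each gene (vertical axis) in each of the 9 libraries (horizontal axis), drawn as log2(CPM + 0.5) minus the mean of the 3 wild-type libraries, with red above and blue below that mean. The column of wild-type replicate 2 is blue for every gene except CYP81F2, where it is close to the mean, and MYB51 and PAD3 are red in all 3 mutant libraries.

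Between genes, levels were compared on the deposited FPKM scale, which divides by gene length. In wild type CYP83B1 was highest at 188 ± 24.4 FPKM (SD, n = 3), followed by CYP79B2 at 132 ± 23.5 FPKM. PAD3 at 81.3 ± 7.70 FPKM and CYP79B3 at 73.7 ± 12.0 FPKM overlapped, as did UGT74B1 at 44.8 ± 3.17 FPKM and SUR1 at 44.4 ± 4.04 FPKM. The regulator MYB34 followed at 17.1 ± 3.50 FPKM, above CYP71A13 at 8.63 ± 2.63 FPKM and MYB51 at 8.29 ± 1.32 FPKM, which overlapped, and CYP81F2 was lowest at 4.23 ± 0.307 FPKM. The 5 core enzymes CYP79B2, CYP79B3, CYP83B1, SUR1 and UGT74B1 had higher means than both MYB factors in all 3 genotypes, and CYP81F2 was last in each. The order differed in 2 places. In the mutant MYB51, at 13.1 ± 0.545 FPKM, stood above CYP71A13, at 10.4 ± 0.776 FPKM, with no overlap. In the overexpression line CYP79B3, at 90.3 ± 6.28 FPKM, stood above PAD3, at 65.7 ± 3.59 FPKM, also with no overlap.

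In the mutant, MYB51, CYP81F2 and PAD3 were higher than in wild type, by 1.57-fold, 1.25-fold and 1.37-fold, and none of the 10 genes was called lower. Calls are by edgeR's quasi-likelihood test at an adjusted p under 0.05 over all 19698 tested genes. Over all tested genes 12.6% were called higher and 17.4% lower, 30.0% in either direction, so that 3 of 10 is the share found among genes at large. The libraries did not overlap for the same 3 genes, and for 45.3% of all tested genes. The 5 core enzymes of the glucosinolate branch from CYP79B2 to UGT74B1 were not called. The median log2 fold change of the 10 genes was 0.08, against 0.00 for all tested genes. Without wild-type replicate 2 the median of the 10 was 0.0037, and 2 of them, MYB34 and CYP79B2, were called lower. Without wild-type replicate 1 the median was 0.15, MYB51, UGT74B1 and PAD3 were called higher, and none was called lower.

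Among the regulators, MYB51, an activator of indole glucosinolate genes, was at 17.0, 12.3 and 15.5 CPM in wild type and at 23.4, 22.6 and 24.6 CPM in the mutant. Every mutant library was above every wild-type library. MYB51 rose by a log2 fold change of 0.65 ± 0.12 (SE), with an edgeR adjusted p = 0.0011, and the log2 fold change was 0.54 without wild-type replicate 2. MYB34, the other MYB activator, was at 36.3, 24.0 and 31.8 CPM in wild type and at 26.0, 25.5 and 24.9 CPM in the mutant, inside the range of the wild-type libraries. Its log2 fold change was -0.28, with a nominal 95% interval from -0.58 to 0.03 and an edgeR adjusted p = 0.16. Without wild-type replicate 2, the lowest of the 3, the log2 fold change of MYB34 was -0.42 and its edgeR adjusted p = 0.0026. Without wild-type replicate 1, the highest, its log2 fold change was -0.14 and its edgeR adjusted p = 0.43.

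CYP79B2, which makes the aldoxime at the branch point, was at 331, 231 and 291 CPM in wild type and at 259, 258 and 274 CPM in the mutant. The mutant libraries again lay inside the wild-type range. Its log2 fold change was -0.11, with an interval from -0.39 to 0.18, and without wild-type replicate 2 it was -0.23 with an edgeR adjusted p = 0.010. Without wild-type replicate 1, the highest for CYP79B2, it was 0.02 with an edgeR adjusted p = 0.92. For CYP79B3, the other enzyme of that step, the log2 fold change was -0.03, with an interval from -0.27 to 0.22. CYP83B1, the entry enzyme of the glucosinolate branch, had 0.05, with an interval from -0.13 to 0.22, and SUR1, the lyase that releases the thiohydroximate, had -0.01, with an interval from -0.13 to 0.11. These 3 intervals lie within 1.5-fold in either direction, and without wild-type replicate 2 the values were -0.14, -0.05 and -0.08, none of them called. Without wild-type replicate 1 they were 0.09, 0.13 and 0.05, also not called. UGT74B1, which adds the glucose, was at 80.9, 70.4 and 75.3 CPM in wild type and at 80.3, 82.0 and 83.4 CPM in the mutant, with a log2 fold change of 0.12 and an edgeR adjusted p = 0.11. Without wild-type replicate 1, the highest wild-type library for UGT74B1, the log2 fold change was 0.17 and the edgeR adjusted p = 0.032, while without wild-type replicate 2, the lowest, they were 0.07 and 0.40.

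CYP81F2, which hydroxylates the indole ring of the finished glucosinolate, was at 7.06, 7.42 and 8.13 CPM in wild type and at 9.47, 9.80 and 9.01 CPM in the mutant. The groups did not overlap. Its log2 fold change was 0.32 ± 0.12 (SE), with an edgeR adjusted p = 0.045, and this call did not hold up: the adjusted p was above 0.05 in 9 of 18 alternatives, with a range of 0.031 to 0.14. Those 9 were the fits without wild-type replicate 1 (0.14) or 2 (0.11), without mutant replicate 1 (0.10), 2 (0.12) or 3 (0.065), with a replicate block (0.059), with no filter (0.064) or a stricter one (0.051), and with DESeq2 (0.11).

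On the camalexin side, PAD3, the cytochrome P450 of the last steps, was at 154, 130.0 and 153 CPM in wild type and at 192, 199 and 207 CPM in the mutant. All 3 mutant libraries were above all 3 wild-type libraries. PAD3 rose by a log2 fold change of 0.45 ± 0.06 (SE), with an edgeR adjusted p = 1.0e-04, and the value lay between 0.38 and 0.49 over 18 alternatives. CYP71A13, which acts earlier in the same branch, was at 16.9, 8.98 and 13.1 CPM in wild type and at 16.8, 14.5 and 15.6 CPM in the mutant. The mutant lay inside the wild-type range, and the log2 fold change of 0.26 had an interval from -0.23 to 0.74, which holds both 0 and the change of PAD3. Without wild-type replicate 2 the log2 fold change of CYP71A13 was 0.06, and without wild-type replicate 1 it was 0.49 (edgeR adjusted p = 0.058). Whether the changes of CYP71A13 and PAD3 differ was not tested.

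**Figure D2:**
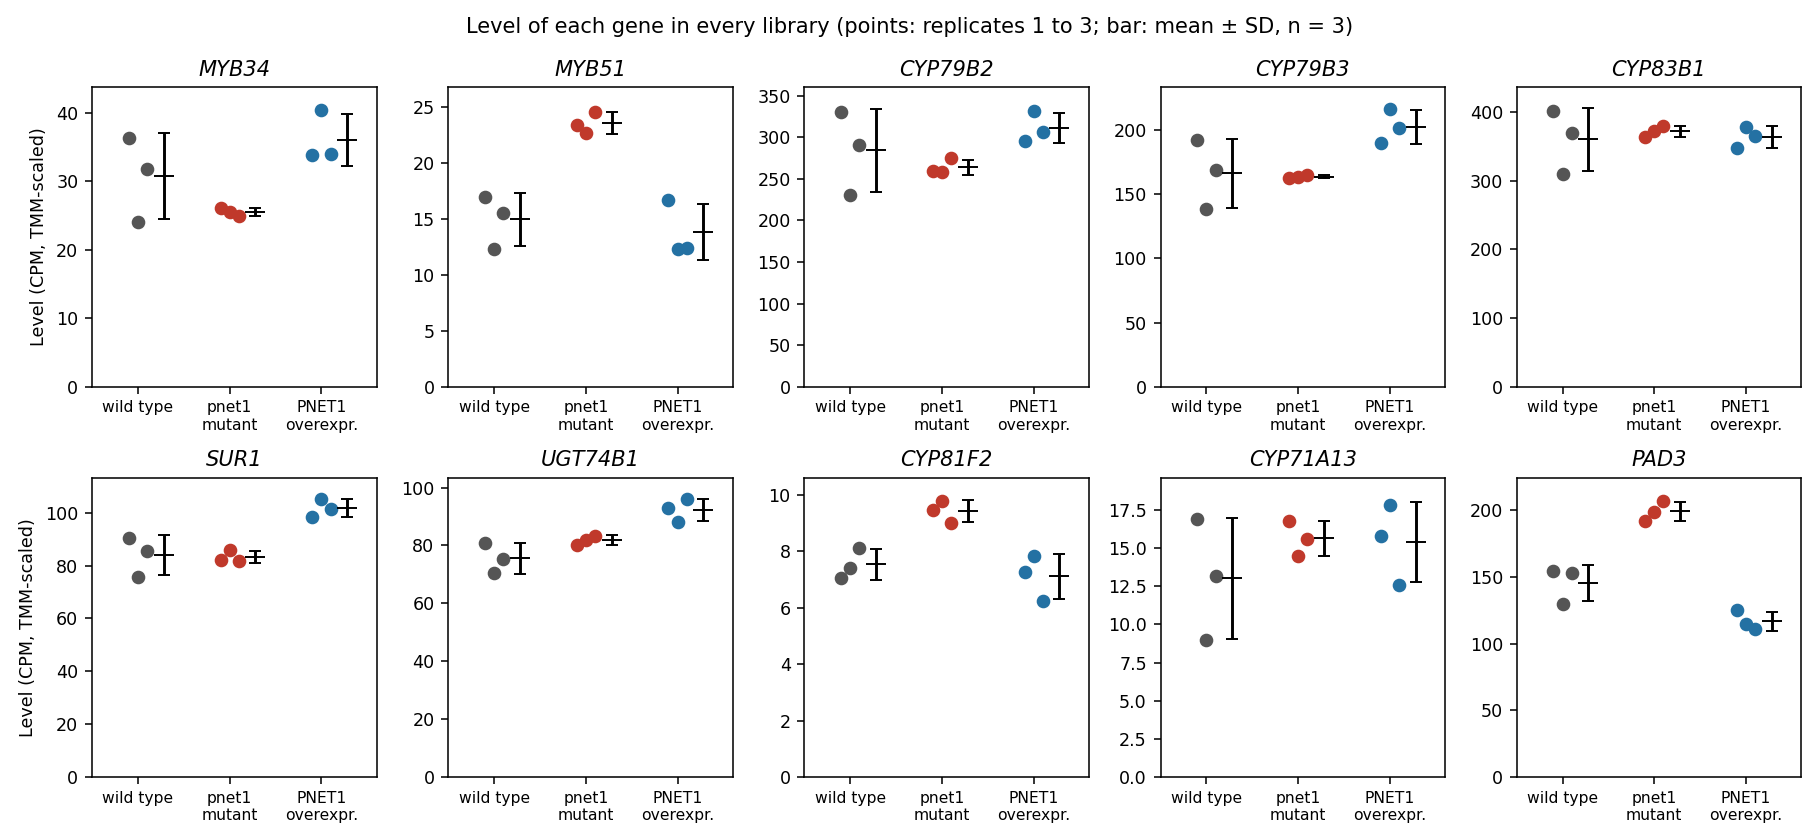
Level of each of the 10 genes in CPM (vertical axes, each from 0) in the 3 genotypes, with 1 point per library and the mean ± SD (n = 3) beside the points. Mutant and wild-type points are apart for MYB51, CYP81F2 and PAD3, and overexpression and wild-type points are apart for SUR1, UGT74B1 and PAD3. The wild-type points span those of the mutant for MYB34, CYP79B2, CYP79B3, CYP83B1, SUR1 and CYP71A13.

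In the overexpression line, SUR1 and UGT74B1 were higher than in wild type, by 1.21-fold and 1.22-fold, and PAD3 was lower, at 0.802 of the wild-type level. Over all tested genes 5.97% were called higher and 5.24% lower, 11.2% in either direction, so 3 of 10 was more than the share among genes at large, a difference that was not tested. The libraries did not overlap for 3 of the 10, and for 28.4% of all tested genes. The median log2 fold change was 0.18 for the 10 genes and -0.00 for all tested genes. That of the 10 was 0.02 without wild-type replicate 2 and 0.29 without wild-type replicate 1. Neither MYB factor was called. Without wild-type replicate 2 SUR1, UGT74B1 and PAD3 were still called, at edgeR adjusted p of 0.025, 0.015 and 0.0012, and no other gene of the 10 was. No gene of the 10 was called at 2-fold or more in any comparison, while 5.56% of all tested genes were in the mutant, 0.345% in the overexpression line and 10.7% between the altered genotypes.

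SUR1 was at 98.4, 105 and 101 CPM in the overexpression line, against 90.5, 75.7 and 85.5 CPM in wild type, and UGT74B1 was at 92.9, 88.3 and 95.9 CPM, against 80.9, 70.4 and 75.3 CPM. In both genes every overexpression library was above every wild-type library. SUR1 rose by a log2 fold change of 0.28 ± 0.06 (SE; edgeR adjusted p = 0.0059) and UGT74B1 by 0.29 ± 0.05 (SE; edgeR adjusted p = 0.0030), and both calls held in 18 of 18 alternatives, with values of 0.21 to 0.33 and of 0.24 to 0.34. CYP79B3 was at 190.2, 216 and 201 CPM, against 192, 138 and 169 CPM in wild type. Its log2 fold change was of the same size, 0.28 with an interval from 0.04 to 0.52, but the groups overlapped by 1 wild-type library, replicate 1, and the edgeR adjusted p = 0.13. It was called by DESeq2 (adjusted p = 0.017) and by edgeR without wild-type replicate 1 (log2 fold change 0.40, adjusted p = 0.0065), and without wild-type replicate 2 it had 0.17 (edgeR adjusted p = 0.11). CYP79B2 and CYP83B1 had log2 fold changes of 0.13, with an interval from -0.15 to 0.41, and 0.01, with an interval from -0.16 to 0.18. Leaving out wild-type replicate 2 gave 0.00 and -0.08 for this pair, and leaving out wild-type replicate 1 gave 0.25 and 0.10.

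PAD3 was at 125, 115 and 111 CPM in the overexpression line. All 3 values were below the lowest wild-type library, 130.0 CPM. PAD3 fell by 0.32 on the log2 scale, with a SE of 0.06 and an edgeR adjusted p = 0.0069, and it fell in each of 18 alternatives, with values from -0.39 to -0.27. CYP71A13 was at 15.7, 17.8 and 12.6 CPM and overlapped wild type, with a log2 fold change of 0.23 and an interval from -0.25 to 0.71. MYB34 was at 33.8, 40.4 and 33.9 CPM, with a log2 fold change of 0.22 and an interval from -0.07 to 0.52, and MYB51 at 16.7, 12.3 and 12.4 CPM, with -0.12 and an interval from -0.40 to 0.16. CYP81F2, at 7.26, 7.84 and 6.26 CPM, had -0.08 and an interval from -0.34 to 0.17. None of these 4 genes had groups that were apart. Leaving out wild-type replicate 2 gave 0.03 for CYP71A13, 0.08 for MYB34, -0.23 for MYB51 and -0.09 for CYP81F2. Leaving out wild-type replicate 1 gave 0.46, 0.36, -0.02 and -0.13 in the same order, none of them called.

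Set directly against the mutant, the overexpression line had 4 genes of the 10 higher (MYB34, CYP79B3, SUR1 and UGT74B1) and 3 lower (MYB51, CYP81F2 and PAD3). Over all tested genes 23.0% were called higher and 20.6% lower, 43.5% in either direction, against 7 of 10 here. The libraries did not overlap for 8 of the 10, and for 53.5% of all tested genes. This comparison does not use the wild-type levels for its values, but the wild-type libraries do enter its estimate of the spread. Between the 2 altered genotypes MYB34, CYP79B3, SUR1 and UGT74B1 therefore stood on the opposite side from MYB51, CYP81F2 and PAD3. The sides were not the branches, because MYB51 and CYP81F2 are also glucosinolate genes. CYP83B1 and CYP71A13, which lead into the 2 branches, were not called. Of the 4 core enzymes outside the 10, 3 were lower in the overexpression line than in the mutant and none was higher.

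The gap was widest for PAD3 and MYB51, both at 0.587 of the mutant level. On the log2 scale PAD3 fell by 0.77 ± 0.06 (SE; edgeR adjusted p = 2.5e-07), and MYB51 also fell by 0.77 (SE 0.12; edgeR adjusted p = 1.4e-04). For MYB34 every overexpression library was above every mutant library, and it rose by 0.50 ± 0.13 (SE; edgeR adjusted p = 0.012). So the MYB pair moved apart: the activator that was higher in the overexpression line than in the mutant was MYB34, and the one that was lower was MYB51. SUR1 rose by 0.29 ± 0.06 (SE; edgeR adjusted p = 4.1e-04). These 4 calls held in each of 18 alternatives.

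The remaining calls of this comparison were weaker. CYP79B3 rose by 0.31 ± 0.11 (SE; edgeR adjusted p = 0.044), but its edgeR adjusted p was above 0.05 in 9 of 18 alternatives, over a range of 7.8e-05 to 0.13. The 9 included the fits that left out any 1 of the mutant or overexpression libraries, or wild-type replicate 3, as well as the replicate block, at 0.084, and no filter, at 0.083. UGT74B1 rose by 0.17 ± 0.05 (SE; edgeR adjusted p = 0.012), which was lost without mutant replicate 1 (0.052) or overexpression replicate 3 (0.054). CYP81F2 fell by 0.41 ± 0.12 on that scale (SE; edgeR adjusted p = 0.0092), which was lost without overexpression replicate 3 (0.052). Without that library 4 of the 10 genes were called in place of 7. CYP79B2, at 295, 331 and 306 CPM against 259, 258 and 274 CPM, had groups that did not overlap but a log2 fold change of 0.24 that was not called (edgeR adjusted p = 0.16). It was called in 4 of 18 alternatives, among them the fit without wild-type replicate 2 (edgeR adjusted p = 0.0023). CYP83B1 had -0.03, with an interval from -0.20 to 0.14, and CYP71A13 had -0.03, with an interval from -0.50 to 0.45.

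**Figure D3:**
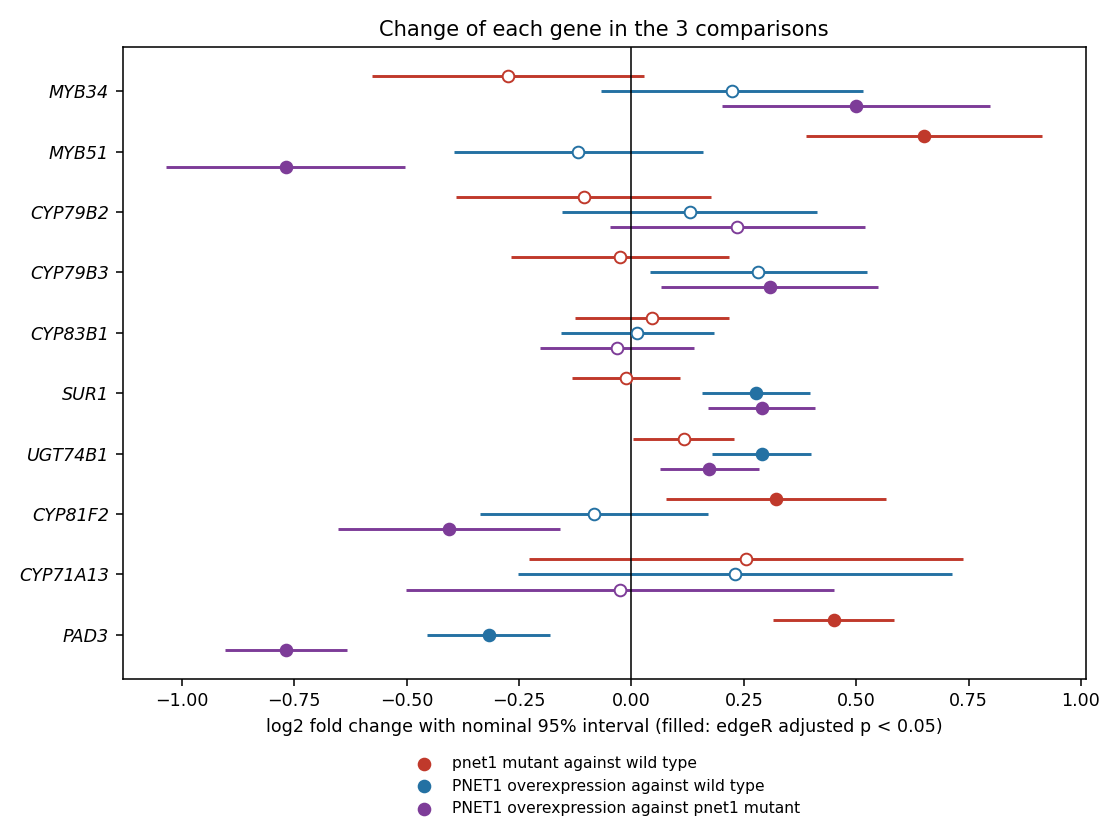
Log2 fold change of each gene (horizontal axis) with its nominal 95% interval (bars) in the 3 comparisons, filled where edgeR's adjusted p was under 0.05. PAD3 is filled in all 3 comparisons, at 0.45, -0.32 and -0.77, while CYP83B1 and CYP71A13 are open in all 3.

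Ratios within a library compare 2 genes without any scaling between libraries. MYB34 over MYB51, on the FPKM scale, was 2.15, 1.96 and 2.07 in wild type, 1.12, 1.13 and 1.02 in the mutant and 2.04, 3.30 and 2.75 in the overexpression line. The mutant libraries were below all others, while the overexpression and wild-type libraries overlapped. PAD3 over CYP83B1, which was not called in any comparison, was 0.412, 0.449 and 0.442 in wild type. It was 0.564, 0.571 and 0.582 in the mutant and 0.386, 0.324 and 0.326 in the overexpression line. The 3 genotypes were apart from each other in this ratio, highest in the mutant and lowest in the overexpression line. CYP79B2 over CYP79B3 was 1.80, 1.75 and 1.81 in wild type, 1.67, 1.65 and 1.74 in the mutant and 1.63, 1.61 and 1.59 in the overexpression line. The wild-type values were narrowly above all others, although the single genes were not called against wild type. CYP71A12 over CYP71A13 was 1.46, 1.84 and 1.22 in wild type, 1.07, 1.11 and 0.993 in the mutant and 1.35, 1.54 and 1.42 in the overexpression line, lowest in the mutant. With 3 libraries against 3 an exact permutation test cannot go below p = 0.10, so these ratios are given without a test.

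**Figure D4:**
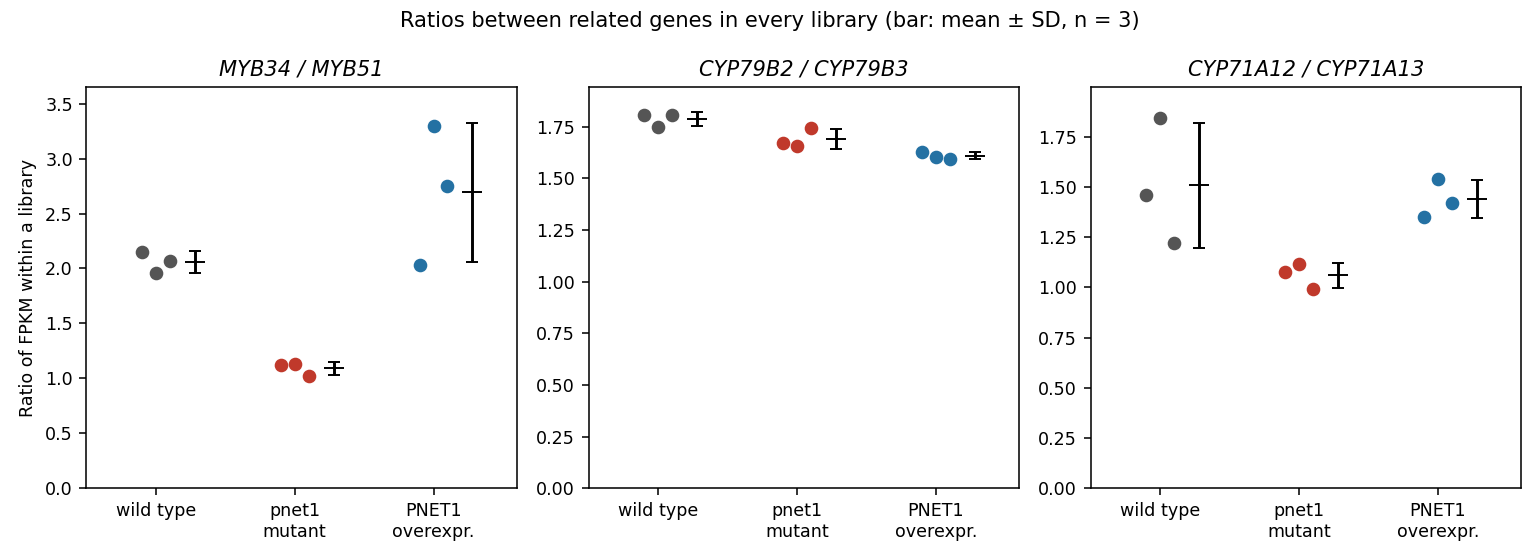
Ratio of the FPKM values of 2 related genes within each library (vertical axes, from 0), with 1 point per library and the mean ± SD (n = 3) of each genotype. MYB34 over MYB51 averaged 2.06 over wild-type, 1.09 over mutant and 2.69 over overexpression libraries, and CYP71A12 over CYP71A13 was lowest in the mutant libraries.

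The other 64 genes of the indole pathway, listed by role, show what surrounded the 10. Of these 60 were tested. In the mutant 15 were higher and 10 lower, 41.7% of those tested against 30.0% of all tested genes, and in the overexpression line 5 were higher and 2 lower, 11.7% against 11.2%. Their median log2 fold changes were 0.09 and 0.05. MYC2, a bHLH factor that works with the MYB proteins, and CYP81F1 were listed at 0 in every library and not tested. Genes on the opposite strand cover 3241 bases of MYC2 and 1820 bases of CYP81F1, nearly their whole length. CYP81F4, covered in the same way over 2140 of its 2149 bases, had enough counts to be tested. Whether the overlap bears on the counts of 0 was not tested.

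Of the 5 other regulators tested, the bHLH factor MYC3 was called in the mutant, at 0.17 (edgeR adjusted p = 0.028; 0.15 without wild-type replicate 2, 0.056 without wild-type replicate 3, 0.11 without mutant replicate 2 and 0.065 without mutant replicate 3), and none in the overexpression line. Of the 4 other core enzymes 3 rose in the mutant by small amounts: the glutathione transferase GSTF10 by 0.31, the peptidase GGP1 by 0.19 and the sulfotransferase SOT16 by 0.16. The call of SOT16 was lost without wild-type replicate 2 or mutant replicate 3, each at an edgeR adjusted p = 0.11. None of the 5 core enzymes described above was called in the mutant, and the difference between the 3 and those 5 was not tested. None of the 4 was called in the overexpression line, and GSTF9, the most abundant of them, had a log2 fold change of 0.16 (edgeR adjusted p = 0.066).

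Among the 7 other tested genes that modify the indole ring, the methyltransferase IGMT2 was at 52.3, 44.7 and 60.5 CPM in wild type and at 92.0, 88.7 and 87.5 CPM in the mutant. It acts after the step of CYP81F2 and rose by 0.76 ± 0.09 (SE; edgeR adjusted p = 7.1e-05), with all mutant libraries above all wild-type libraries. IGMT3 and IGMT4 rose by 0.26 and 0.22, and the call of IGMT3 was lost without wild-type replicate 2 (0.090) or mutant replicate 2 (0.074). IGMT2 and IGMT3 share a run of 263 identical coding bases and lie 3575 bases apart, so their separate counts are uncertain. None of the 7 was called in the overexpression line, where IGMT5, the most abundant, had -0.03 (edgeR adjusted p = 0.80).

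Of the 6 other camalexin genes tested, GSTU4, a glutathione transferase linked to camalexin synthesis, was at 138, 134 and 157 CPM in wild type, at 213, 200.3 and 207 CPM in the mutant and at 127, 116 and 109 CPM in the overexpression line. Like PAD3, it was highest in the mutant and lowest in the overexpression line without overlap. It rose by 0.53 in the mutant (edgeR adjusted p = 3.0e-05) and fell by 0.29 on the log2 scale in the overexpression line (edgeR adjusted p = 0.012; 0.055 without wild-type replicate 3 and 0.052 without overexpression replicate 2). The peptidase GGP3 fell by 0.21 on the log2 scale in the mutant. CYP82C2, which acts in the synthesis of related indole defence compounds, was called higher in the overexpression line, with a log2 fold change of 1.97, but on levels of 0.120 to 0.532 CPM in wild type and 0.593 to 2.06 CPM there, and the call was lost without wild-type replicate 2 (0.063) or overexpression replicate 2 (0.093). Of 4 regulators of camalexin, the kinase gene MPK3 rose by 0.35 in the mutant (edgeR adjusted p = 0.0027), and none was called in the overexpression line. WRKY33, the factor that is known to switch on PAD3 after infection, had 0.35 in the mutant, which was not called (edgeR adjusted p = 0.10).

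Upstream, 3 of the 11 tested genes of tryptophan synthesis were called in the mutant, with PAT1 at -0.22, TSA1 at 0.18 and ASB1 at 0.13, and none was called in the overexpression line. The call of PAT1 was lost without wild-type replicate 1 (0.070) or mutant replicate 1 (0.051), and that of ASB1 in 10 of 18 alternatives, up to 0.20 without wild-type replicate 2. ASA1, which sets the flow into the pathway, was not called in the overexpression line (-0.06). Of 9 genes for active sulfate and glutathione, which supply sulfur to both products, APR3 rose by 0.17 in the mutant. APK2, the neighbour of CYP79B2 at a distance of 3436 bases, and APS3 were called in the overexpression line, at 0.32 and 0.27. Those 2 calls were lost in 5 and 7 of 18 alternatives, among them the fits without wild-type replicate 3, overexpression replicate 2 or overexpression replicate 3, with APS3 also lost without wild-type replicate 2.

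Among the listed genes, the widest changes in the mutant were downstream of the 10, in breakdown and transport, where 8 of 14 tested genes fell in the mutant and 3 rose. ESP, which steers the products of breakdown, was at 3.84, 2.99 and 2.29 CPM in wild type and at 0.513, 0.590 and 0.330 CPM in the mutant, and fell by 2.66 on the log2 scale. TGG1 and TGG2, the myrosinases that cleave glucosinolates, fell by 1.77 and 1.69. TGG1 and TGG2 are also markers of guard and myrosin cells: with FAMA, the third gene of that list, their sum ranged from 277 to 414 CPM over wild-type libraries, from 89.8 to 124 CPM over mutant libraries and from 300.3 to 540.3 CPM over overexpression libraries, and all 3 fell in the mutant. The part of those cells in these falls was not tested. In the overexpression line ESP was called at 0.82, the myrosinase gene PEN2 at 0.21 and the nitrilase gene NIT2 at -0.19, and each of the 3 calls was lost without wild-type replicate 3 (0.12, 0.13 and 0.25), overexpression replicate 2 (0.067, 0.089 and 0.18) or overexpression replicate 3 (0.15, 0.23 and 0.15). ESP and PEN2 were also lost without wild-type replicate 2 (0.067 and 0.15), PEN2 and NIT2 without any 1 of the mutant libraries (0.059 to 0.072), and NIT2 without wild-type replicate 1 (0.087). In all, the call was lost for NIT2 in 15 of 18 alternatives, for PEN2 in 10 of 18 and for ESP in 6 of 17.

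**Figure D5:**
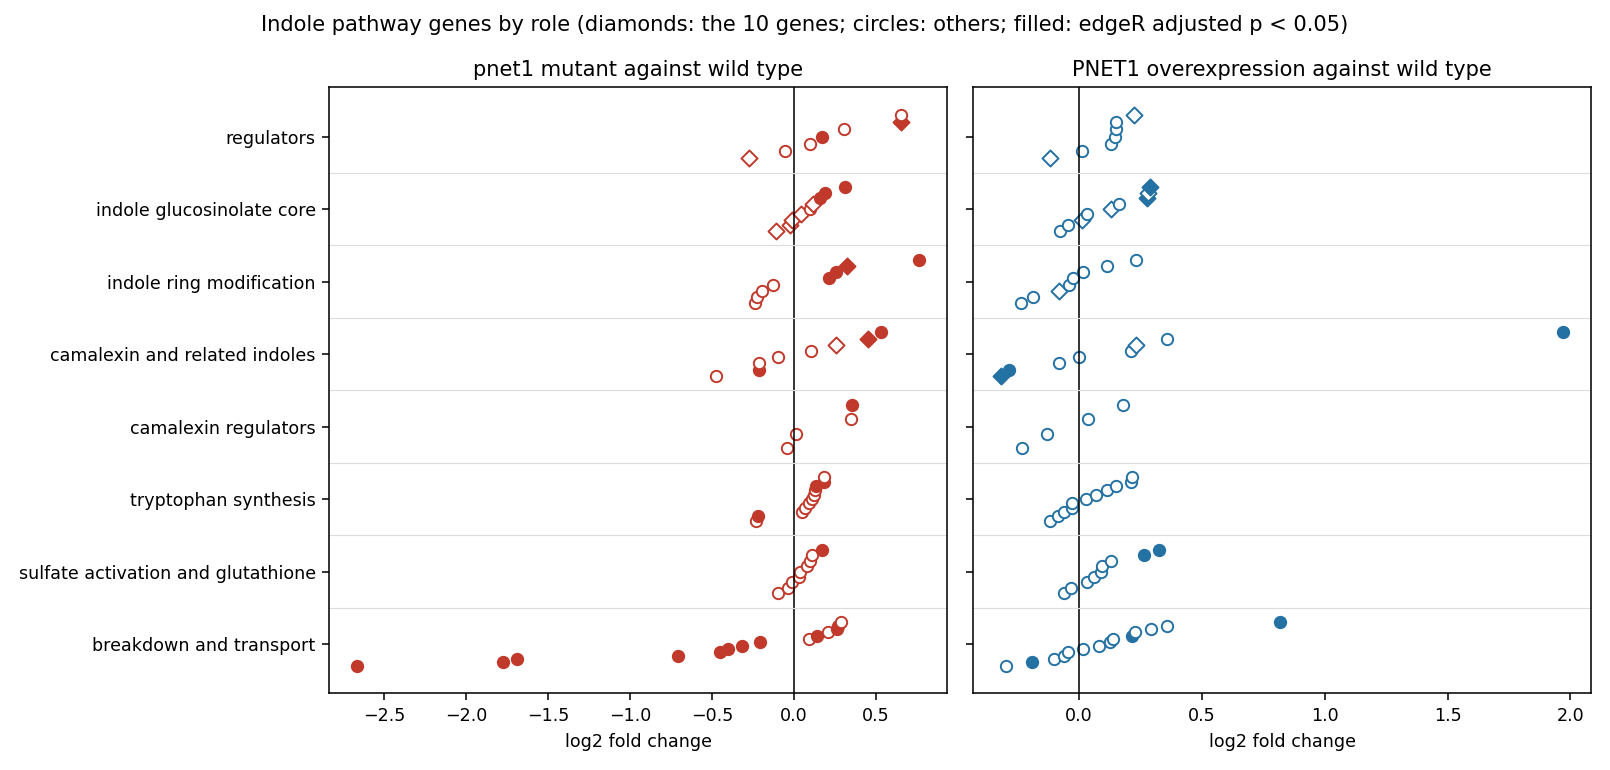
Log2 fold change (horizontal axis) of the 70 tested genes of the indole pathway by role (vertical axis), in the mutant (left) and the overexpression line (right) against wild type, with diamonds for the 10 genes, circles for the others and filled symbols where edgeR's adjusted p was under 0.05. The mutant panel reaches -2.66 for ESP in the breakdown row, and the core row holds 3 filled circles and no filled diamond.

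Likeness of profile was measured as the root mean square difference between genes of log2(CPM + 0.5), centred on each gene's mean, over the 9 libraries. Within the 10 genes the closest pair was CYP79B3 and SUR1, at 0.0591, followed by CYP79B2 and CYP79B3, at 0.0655, and SUR1 and UGT74B1, at 0.0798. Outside them, among 9583 genes with a symbol and at least 2 CPM, the closest to CYP79B2 were IBH1 at 0.0405, DJ1E at 0.0670, EXT3 at 0.0743 and VPS2.3 at 0.0777. The closest to CYP83B1 were PAL1 at 0.0491, the first enzyme of the phenylpropanoid pathway, GLR3.3 at 0.0516, REM10 at 0.0524 and ARF9 at 0.0524. The means of CYP83B1 were 360 CPM in wild type, 372 CPM in the mutant and 363 CPM in the overexpression line. Genes that also differed little between genotypes come out near it from how they were picked. The closest to PAD3 were the gene that the deposited table calls PDR5 at 0.0566, ADR1-L1 at 0.0617, DTX47 at 0.0638 and the auxin response factor gene ARF5 at 0.0665. In each of these 4 the mean level was highest in the mutant and lowest in the overexpression line, as in PAD3, which follows from how they were picked. The mean of ARF5, for example, was 259 CPM in wild type, against 365 CPM for mutant callus and 218 CPM for overexpression callus.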

How the data were processed

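The 10 genes and the role lists were chosen with earlier results of these data known. Raw counts per gene, as the authors deposited them, were used for all tests. HISAT2 (2.0.4), HTSeq (0.6.1p1) and TAIR10 are named in the submitters' processing notes, and the sources used here do not give the strand setting, annotation release or filter behind the counts. FPKM values deposited by the authors served for comparisons between genes. Each FPKM value equals the count divided by gene length and by 1 constant per library, within 1% for 100% of genes with over 20 counts.

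Tests were run in edgeR (4.0.16, R 4.3.3). Low genes were removed by filterByExpr with a minimum count of 10 and a minimum total of 15, which left 19698 genes in and took 13135 out. With TMM scaling, all 9 libraries entered a single robust quasi-likelihood fit, 1 mean for each genotype. P-values were adjusted by Benjamini-Hochberg over all tested genes, and calls are at an adjusted p under 0.05. SE and the nominal 95% interval come from the F statistic, and levels are CPM with TMM scaling. The fit was tested on simulated counts with planted changes of 1.5-fold and 2-fold. Its recovery of smaller changes, such as several of those called here, was not tested. Alternatives were RLE, upper quartile and no scaling factors, 2 other filters, DESeq2 (1.42.0), 2 groups only, a replicate block, a gene length offset and leaving out each library.

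Named genes were the 10, up to 3 called genes of each role with the largest change in each comparison with wild type (or the most abundant one if none was called), and the 4 genes nearest in profile to CYP79B2, CYP83B1 and PAD3. MYC2, CYP81F1, CYP71A12, WRKY33, FAMA and the other markers were added for the checks they bear on. Gene starts and ends in the files were the same in the RefSeq TAIR10.1 annotation for 32532 of 32548 nuclear genes, so sequences were read from that genome by the files' coordinates. PNET1 was matched to its locus from background knowledge. Of the 10, CYP81F2 has the fewest counts and so the largest counting error.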

Additional observations from a re-analysis of the deposited data

How the results depend on the processing

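Over 18 alternatives per gene, the 10 genes kept direction and call in 161 of 180 values for the mutant, 175 of 180 for the overexpression line and 161 of 180 for overexpression against mutant. The number of all genes called in the overexpression line was 2208, 1430 with 2 groups only and 737 to 3125 with 1 library left out. The number of the 10 called between overexpression and mutant was 7, and 4 to 8 with 1 library left out. Directions that reversed were all of uncalled values near 0. With library totals only, SUR1 in the mutant was 0.0103. With 1 library left out, the log2 fold change in the mutant ranged from -0.23 to 0.0172 for CYP79B2, -0.14 to 0.0902 for CYP79B3, -0.0509 to 0.13 for CYP83B1, -0.0793 to 0.0457 for SUR1 and -0.18 to 0.0105 for APK2. In the overexpression line it ranged from -0.0839 to 0.0973 for CYP83B1, -0.0803 to 0.0111 for GGP1, -0.0135 to 0.0552 for SOT16, -0.16 to 0.00236 for CYP81F2, -0.14 to 0.0716 for IGMT2, -0.00658 to 0.0565 for IGMT4, -0.0872 to 0.0192 for IGMT5, -0.0723 to 0.000749 for TSA1 and -0.0555 to 0.00264 for APR3. Between overexpression and mutant it ranged from -0.0777 to 0.00261 for MYC3, -0.0621 to 0.0169 for CYP83B1 and -0.14 to 0.10 for CYP71A13. The causes were not tested. Libraries with the same replicate number shared only that number (correlations of -0.21 to 0.10, 8 of 18 best with their own). With a replicate block 5683 genes were called in the mutant (5908 without), 1726 in the overexpression line (2208 without) and 8366 between the altered genotypes (8576 without), and of the 10 genes 2, 3 and 6. The wild-type library of replicate 2, low for 9 of the 10 genes, was 1 of only 3, and CYP81F2 had the fewest counts, from 116 in a library.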
